A study of Mus musculus with 36 samples.

Results

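The sensing of bacterial products by the developing mouse liver was followed through the mRNAs of 10 genes: Lbp, Cd14, Tlr4, Ly96, Tlr2, Pglyrp2, Myd88, Nfkbia, Il1b and Tnf. They were chosen by symbol, and all 10 had a row in the table of 21889 gene symbols. RNA-Seq of whole liver was done in 36 untreated male C57BL/6 mice, 3 different mice at each of 12 ages. The ages were Day -2 (before birth), Day 0 (just born, not yet suckling), Days 1, 3, 5, 10, 15 and 20 (suckling), and Days 25, 30, 45 and 60 (after weaning at 21 days of age). Every group shared strain, sex and tissue, dams were kept on standard chow, and no group is labelled as germ-free, infected or given endotoxin. The comparisons ask how these mRNAs moved at birth, over the first day of suckling and across weaning, when the bacteria that reach the gut change.

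Endotoxin, the lipopolysaccharide of Gram-negative bacteria, is picked up in plasma by the LPS-binding protein (Lbp), handed to CD14, and presented to a receptor made of TLR4 and MD-2 (the product of Ly96). TLR2 recognizes bacterial lipoproteins, and both receptors signal through the adaptor MyD88 to NF-kB, which is held in the cytoplasm by IκBα (Nfkbia). Active NF-kB switches on Il1b, Tnf and also Nfkbia, its own inhibitor. Pglyrp2 encodes an amidase, secreted by hepatocytes, that cuts bacterial peptidoglycan. In liver, hepatocytes secrete Lbp and Pglyrp2, while the receptors and cytokines are mainly known from Kupffer cells, the resident macrophages, and from other immune and sinusoidal cells.

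Proximal promoters are shown for Nfkbia and Pglyrp2 because both mRNAs rose at birth, the first as a known target of NF-kB and the second as a gene of hepatocytes. RefSeq promoter windows (GRCm38.p6) of 250 bases before the gene start were found for Tlr2, Myd88, Nfkbia, Il1b, Tnf and Pglyrp2, and each matched 1 place in NCBI37/mm9, the build of the deposited values. The NF-kB consensus was searched on both strands, and was present in 7.25% of all 32851 windows of this length. In the Nfkbia window, chr12:56593635-56593884 on the minus strand, which ends at the annotated gene start, the capitals mark 1 match, 29 to 20 bases before the start.
Nfkbia: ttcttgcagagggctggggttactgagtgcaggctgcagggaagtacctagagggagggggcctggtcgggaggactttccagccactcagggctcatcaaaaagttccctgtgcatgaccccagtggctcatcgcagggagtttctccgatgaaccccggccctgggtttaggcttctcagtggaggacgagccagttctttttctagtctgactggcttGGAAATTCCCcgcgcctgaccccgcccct

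In the Pglyrp2 window, chr17:32557921-32558170 on the minus strand, the capitals mark the letters TTGCNNAA, a pattern bound by the hepatocyte factors of the C/EBP family, read on either strand. It occurred at 197 to 190 and at 169 to 162 bases before the start, and 9.56% of all windows held it at least once. The window overlapped 0 bases of annotated exons, although a longer transcript model of the gene starts upstream of it.
Pglyrp2: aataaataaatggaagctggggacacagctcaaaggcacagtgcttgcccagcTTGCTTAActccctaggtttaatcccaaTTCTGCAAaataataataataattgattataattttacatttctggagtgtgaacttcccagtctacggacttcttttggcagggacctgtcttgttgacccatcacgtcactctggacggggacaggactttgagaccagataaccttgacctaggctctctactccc

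Tlr2 also held the NF-kB consensus, as overlapping matches 173 to 163 bases before the RefSeq start (chr3:83645693-83645703, minus strand), shown here in capitals with 9 bases on each side. This RefSeq start lies inside the gene as annotated, 159 of the 250 bases of the window lie in annotated exons, and the matches are 4 to 14 bases upstream of the annotated start, 83645689.
Tlr2: aggacacctGGGGAATTCCCacacggagc

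The Myd88 window held TTCNNNGAA, the STAT pattern that 7.02% of windows held, 46 to 38 bases before the RefSeq start, and the windows of Il1b and Tnf held none of the 3 patterns. The RefSeq start of Myd88 also lies inside the annotated gene rather than at its annotated start, and 23 bases of that window lie in annotated exons. These matches describe letters in a short window only, and the study measured no factor binding. All 10 genes are single loci in the annotation (GENCODE M1 on mm9). Lbp lies at chr2:158132229-158158588 on the plus strand with 15 exons in its longest transcript, Tlr4 at chr4:66488618-66591318 (plus, 3 exons), Ly96 at chr1:16678537-16699686 (plus, 5 exons) and Myd88 at chr9:119245052-119250529 (minus, 4 exons).

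Levels are given as FPKM, mapped fragments scaled by exon length and by library size, so that levels of different genes can be compared. The deposited FPKM summed to between 353712 and 450597 per mouse, and the relative depth estimated from low genes differed little, from 0.893 to 1.11 times the geometric mean of all mice. Replicates of 1 age correlated across genes with a Pearson r of at least 0.971. The 6 hepatocyte markers were detected in every mouse, with sums from 7690 to 79060 FPKM. Of the 36 libraries, 9 held over 1000 FPKM of 7 exocrine pancreas markers, with a highest sum of 18790, and Day 0 replicate 1 held 1383 FPKM of 7 skeletal muscle markers, against at most 94.5 in any other mouse. Erythroid markers summed to between 127200 and 185200 FPKM at Day -2 and between 650.2 and 714.7 FPKM at Day 60. At Day -2 all genes summed to between 382600 and 449000 FPKM, so these few genes held a large share of the summed FPKM, which is not a share of fragments. The 75th percentile of the tested genes also differed, from 13.7 to 14.6 FPKM at Day -2 and from 9.02 to 9.58 FPKM at Day 60. Because of such differences the comparisons were also fitted after upper quartile scaling, which sets the 75th percentile of expressed genes equal between libraries. The calls of members that it changed are given with it.

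Of the 10 genes, 7 had 1 or more age means of 1 FPKM or above and were tested together with the other genes, 11149 in all. Tlr4, Il1b and Tnf stayed below this limit at every age. All 7 tested members differed from Day 60 in at least 1 age (limma on log2(FPKM + 1), Benjamini-Hochberg adjusted over all genes and all 11 comparisons), but so did 90.7% of all genes tested. What set the members apart from each other was the age at which they moved, as the following groups show.

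Lbp, which loads endotoxin onto CD14, was the most abundant member over the first days, and its high phase ran from birth to the end of suckling. At Day -2 the 3 mice had Lbp at 31.8, 33.99 and 35.1 FPKM, and at Day 0 they had 90.5, 69.5 and 99.1 FPKM. Levels at Day 1 were 93.6, 94.0 and 78.6 FPKM, and at Day 3, the age with the highest mean, 103.3, 128.4 and 124.2 FPKM. The lowest Day 0 mouse thus stood above every mouse sampled before birth, and no mouse of Days 0 to 5 fell back to the fetal level. Suckling mice kept this level, with 104.1, 113.2 and 86.7 FPKM at Day 5, 112.2, 128.8 and 85.0 FPKM at Day 10, and 88.0, 78.0 and 79.6 FPKM at Day 15. On Day 20, the last age before weaning, the mice had 85.6, 65.7 and 85.8 FPKM. On Day 25 they had 35.1, 25.1 and 39.3 FPKM. The fall across weaning therefore left no overlap, and brought Lbp to a mean within 1 SD of that at Day -2 (33.2 ± 7.30 against 33.6 ± 1.69 FPKM, SD, n = 3). Adolescent and adult mice stayed low, with 16.1, 23.4 and 24.3 FPKM at Day 30, 31.2, 30.3 and 19.5 FPKM at Day 45, and 27.4, 27.4 and 22.5 FPKM at Day 60.

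Ordered by their means, the 12 ages of Lbp fell into 2 blocks. The only neighbours whose mice did not overlap were Day 20, at a mean of 79.0 FPKM, and Day -2, at 33.6 FPKM; within the upper block (Days 0 to 20) and the lower block (Day -2 and Days 25 to 60) the other 10 neighbouring pairs overlapped. Lbp rose 2.57-fold at birth (ratio of means; log2 fold change 1.32 ± 0.19, SE; limma adjusted p = 2.01e-06). It fell to 0.42 of its level across weaning (log2 fold change -1.24 ± 0.19, limma adjusted p = 3.49e-05), and all 3 mice of Day 25 were below all 3 of Day 20. Over the first day of suckling Lbp did not pass the test (adjusted p = 0.87, limma). Compared with Days 25 to 60, the suckling ages together were 3.59-fold higher (log2 fold change 1.82 ± 0.09, limma adjusted p = 2.55e-17), with 65.7 FPKM in the lowest suckling mouse and 39.3 FPKM in the highest weaned mouse. After upper quartile scaling these log2 fold changes of Lbp were 1.58 at birth, -1.21 across weaning and 1.42 against the weaned ages, and all passed the test.

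Pglyrp2, the peptidoglycan amidase, had the widest range of the hepatocyte pair, 16.6-fold between its highest and lowest age means, and rose at birth without falling at weaning. The 3 mice had 7.22, 5.18 and 6.30 FPKM at Day -2, then 30.5, 17.7 and 27.7 FPKM at Day 0. By Day 1 they had 39.8, 47.4 and 42.5 FPKM, and by Day 3 58.9, 64.4 and 67.7 FPKM. Each of these steps left the mice of the earlier age below those of the later one, so Pglyrp2 was the only member whose 4 youngest ages could be ordered without overlap. Levels were 93.9, 90.4 and 74.2 FPKM at Day 5 and 93.1, 122.1 and 94.9 FPKM at Day 10, the highest age. On either side of weaning the mice had 77.2, 70.1 and 101.6 FPKM (Day 20) and 78.1, 84.2 and 89.1 FPKM (Day 25). These 2 ages overlapped, and the mean changed only from 83.0 to 83.8 FPKM. Later mice ranged from 55.1 FPKM (Day 30) to 86.6 FPKM (Day 60).

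**Figure D1:**
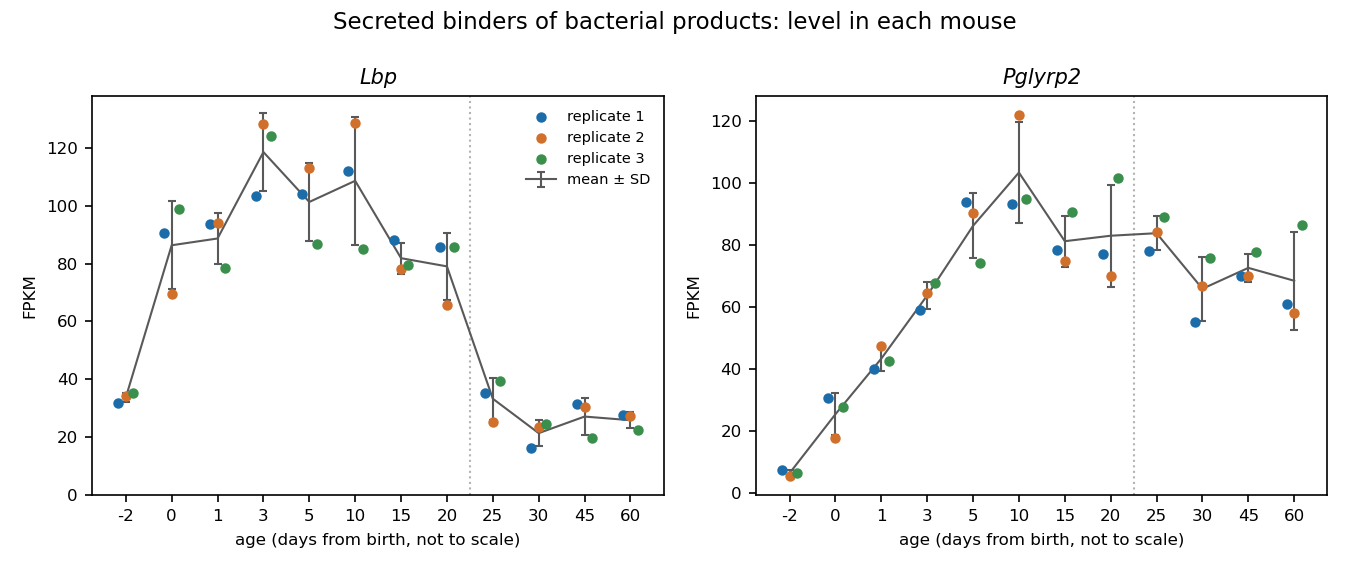
FPKM of Lbp and Pglyrp2 in each of the 36 mice against age in days (equally spaced, not to scale); points are mice, coloured by replicate number, the line joins the means of 3 mice, bars are SD, and the dotted line marks weaning. Lbp stepped up at birth and down at weaning (79.0 to 33.2 FPKM), whereas Pglyrp2 climbed to 103.4 FPKM at Day 10 and kept a mean of at least 65.8 FPKM afterwards.

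Pglyrp2 rose 4.06-fold at birth (log2 fold change 1.84 ± 0.18, limma adjusted p = 2.29e-09) and again 1.71-fold over the first day of suckling (0.78 ± 0.18, limma adjusted p = 0.0015). The suckling ages were 4.87-fold above the 2 ages before suckling (log2 fold change 2.46 ± 0.10, limma adjusted p = 1.74e-18). No difference from the weaned ages passed the test on FPKM (0.04 ± 0.08, adjusted p = 0.69, limma), but after upper quartile scaling the suckling ages were lower (-0.37, limma adjusted p = 0.0001), so its direction there depended on the scaling. The hepatocyte marker sum moved with both genes at birth: it lay between 7690 and 9235 FPKM in the fetal mice and between 38150 and 47150 FPKM in the newborn. It did not move with Lbp at weaning, where it ranged from 57500 to 67440 FPKM at Day 20 and from 55740 to 60500 FPKM at Day 25. Whether the rise at birth was more hepatocytes in the tissue or more mRNA in each of them cannot be told apart in bulk liver, and this holds for every member here.

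Cd14, the co-receptor that receives endotoxin from Lbp, is normally a macrophage and hepatocyte protein that inflammation raises. Its Day -2 mice had 0.90, 1.36 and 1.60 FPKM, and its Day 0 mice had 13.2, 1.81 and 1.88 FPKM. One newborn therefore stood far above all other 35 mice, of which the highest had 4.20 FPKM, and the other two lay just above the fetal mice. The high mouse was Day 0 replicate 1, the library with the muscle markers, whose part in the value was not tested. With it, the Cd14 mean was 4.35-fold higher in newborn than in fetal mice (log2 fold change 1.10 ± 0.34, limma adjusted p = 0.0075). Without it, the log2 fold change was 0.33 and did not pass the test (limma adjusted p = 0.15), and Cd14 rose over the first day instead (0.58, limma adjusted p = 0.019), which it did not with all mice (-0.19, limma adjusted p = 0.70). Levels at Day 1 were 3.24, 2.53 and 4.20 FPKM, and at Day 5 2.76, 3.95 and 2.49 FPKM. From Day 15 on the mice ranged between 1.05 and 2.74 FPKM and overlapped at weaning. Suckling mice had 1.65 times the mean of weaned mice (log2 fold change 0.46 ± 0.15, limma adjusted p = 0.0076), which did not pass after upper quartile scaling (0.19, limma adjusted p = 0.29).

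TLR4 and MD-2 form the endotoxin receptor, but their mRNAs did not share a course. Tlr4 was scarce throughout, with a highest value of 0.77 FPKM (Day 1 replicate 1) and a lowest of 0.04 FPKM (Day 30 replicate 1). Its mice had 0.77, 0.49 and 0.32 FPKM at Day 1 and 0.73, 0.29 and 0.71 FPKM at Day 5, against 0.11, 0.15 and 0.09 FPKM at Day 60. Suckling mice had a median of 0.32 FPKM and weaned mice one of 0.10 FPKM, with a small overlap between the lowest suckling mouse (0.13) and the highest weaned mouse (0.16). Tested without the filter on low values, Tlr4 was higher in the suckling ages than after weaning by a log2 fold change of 0.33 (limma adjusted p = 5.1e-06). With upper quartile scaling added it was 0.26 (limma adjusted p = 4.26e-05), and with a pseudocount of 0.1 FPKM in place of 1 it was 1.196. Relative to the ages before suckling, Tlr4 did not pass without the filter (0.03, adjusted p = 0.83, limma).

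Ly96, the MD-2 partner of Tlr4, rose instead from the fetus to the suckling pup and stayed there. The mice had 0.70, 0.82 and 0.80 FPKM at Day -2 and 1.04, 0.42 and 1.15 FPKM at Day 0, then 1.99, 1.56 and 1.95 FPKM at Day 5. At Day 60 they had 1.29, 1.88 and 1.48 FPKM, within the range of the suckling mice. Ly96 was 1.74-fold higher in the suckling ages than before suckling (log2 fold change 0.41 ± 0.08, limma adjusted p = 7.91e-05). It did not pass the test against the weaned ages (-0.06 ± 0.07, adjusted p = 0.40, limma), although after upper quartile scaling it was lower in suckling mice by -0.31 (limma adjusted p = 0.0005). Over the 12 age means Tlr4 and Ly96 had a Pearson r of -0.22, while Tlr2 and Tlr4 had 0.95, as a description over age means of the same libraries.

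Tlr2, the lipoprotein receptor, was high in the first week of life and fell before weaning rather than at it. The 3 mice had 1.41, 1.65 and 1.46 FPKM at Day -2 and 0.99, 1.68 and 1.22 FPKM at Day 0. They had 2.46, 2.41 and 1.23 FPKM at Day 1, 2.29, 2.50 and 2.54 FPKM at Day 3 and 2.72, 2.32 and 2.35 FPKM at Day 5. All mice of Days 3 and 5 were above all mice of Day 0, whereas Day 1 replicate 3 was not. By Day 10 levels were 1.70, 1.34 and 1.29 FPKM, and by Day 20 1.07, 0.75 and 0.76 FPKM; at Day 60 they were 0.45, 0.66 and 0.59 FPKM. The rise over the first day passed the test (1.57-fold, log2 fold change 0.38 ± 0.14, limma adjusted p = 0.038), but not after upper quartile scaling (0.27, limma adjusted p = 0.12). Leaving out Day 0 replicate 1 (0.28, limma adjusted p = 0.15) or 3 (0.36, limma adjusted p = 0.11), or Day 1 replicate 1 (0.27, limma adjusted p = 0.21) or 2 (0.28, limma adjusted p = 0.17), also ended the call. Suckling ages were 2.70-fold above weaned ages (0.68 ± 0.06, limma adjusted p = 1.03e-10), also after upper quartile scaling (0.48). Against the ages before suckling Tlr2 did not pass on FPKM (0.12 ± 0.08, adjusted p = 0.18, limma). After upper quartile scaling it did (0.19, limma adjusted p = 0.031).

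**Figure D2:**
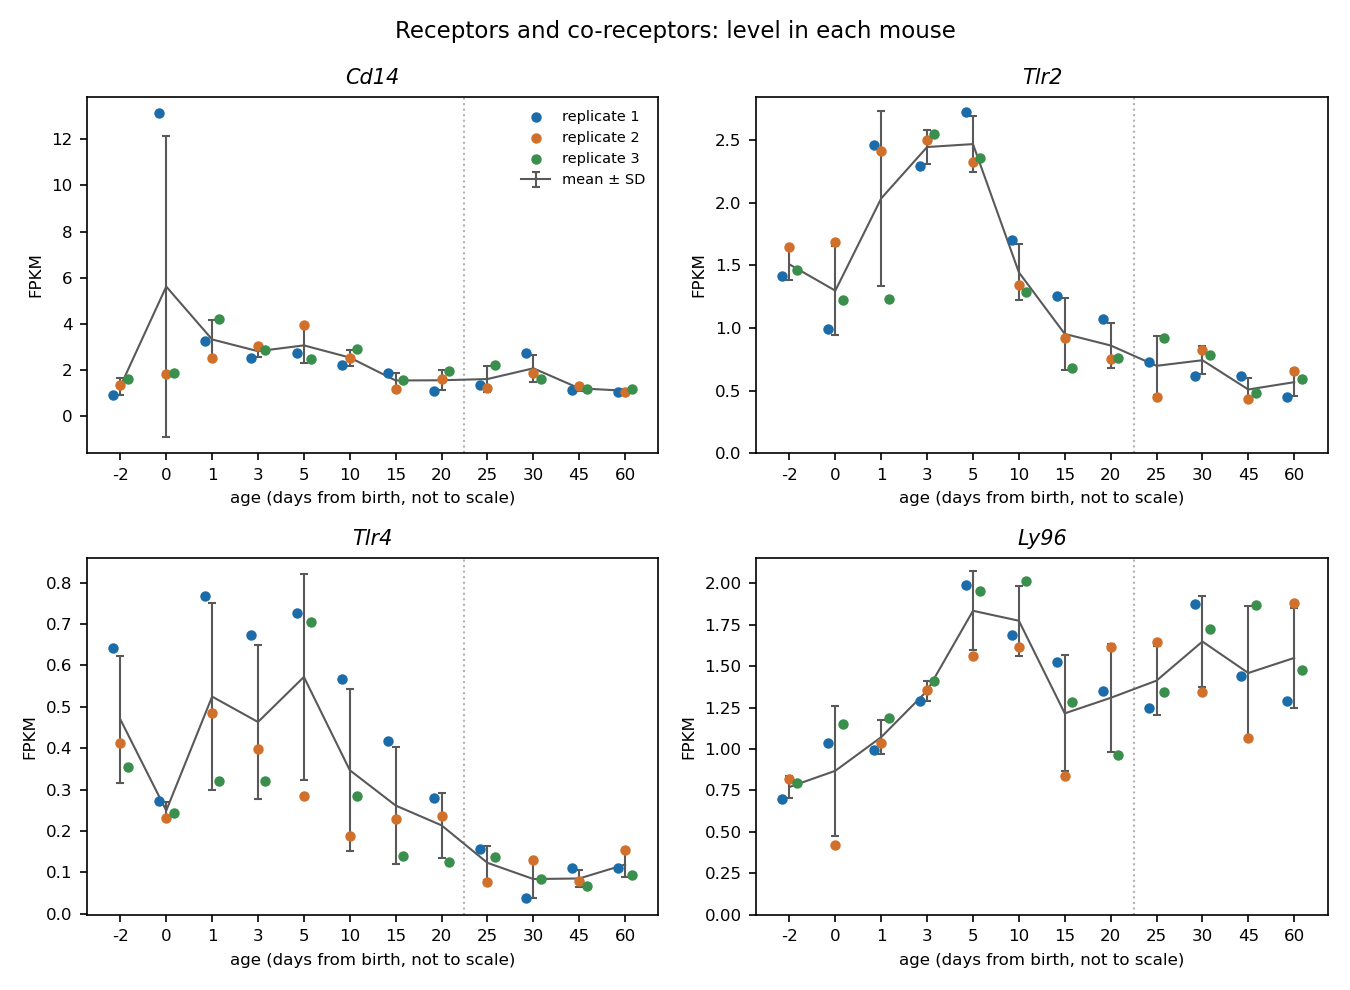
FPKM of Cd14, Tlr2, Tlr4 and Ly96 in each mouse against age (points are mice by replicate number, the line joins the means of 3 mice, bars are SD, the dotted line marks weaning; each panel has its own linear axis). The single Cd14 point at 13.2 FPKM is Day 0 replicate 1; Tlr2 peaked at 2.47 FPKM at Day 5 and Ly96 had its lowest mean, 0.77 FPKM, at Day -2.

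The summed level of Kupffer cell and macrophage markers also differed between ages. All 11 of these markers in the table reached at least 1 FPKM, and none was at 0. Their sum ranged from 211.6 to 323.7 FPKM over the mice of Days -2 and 0, from 382.6 to 514.4 FPKM over Days 1, 3 and 5, from 142.5 to 382.7 FPKM over Days 10, 15 and 20, and from 127.5 to 261.0 FPKM over Days 25 to 60. Mice of Days 10 to 20 thus overlapped both those before suckling and those after weaning, and these 2 sets also overlapped each other. Neutrophil markers (11 of 11 reached at least 1 FPKM) followed another course, with the highest sum, 4330 FPKM, at Day 0 and at most 8.97 FPKM in any weaned mouse. The part of either cell type in the receptor values was not tested.

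**Figure D3:**
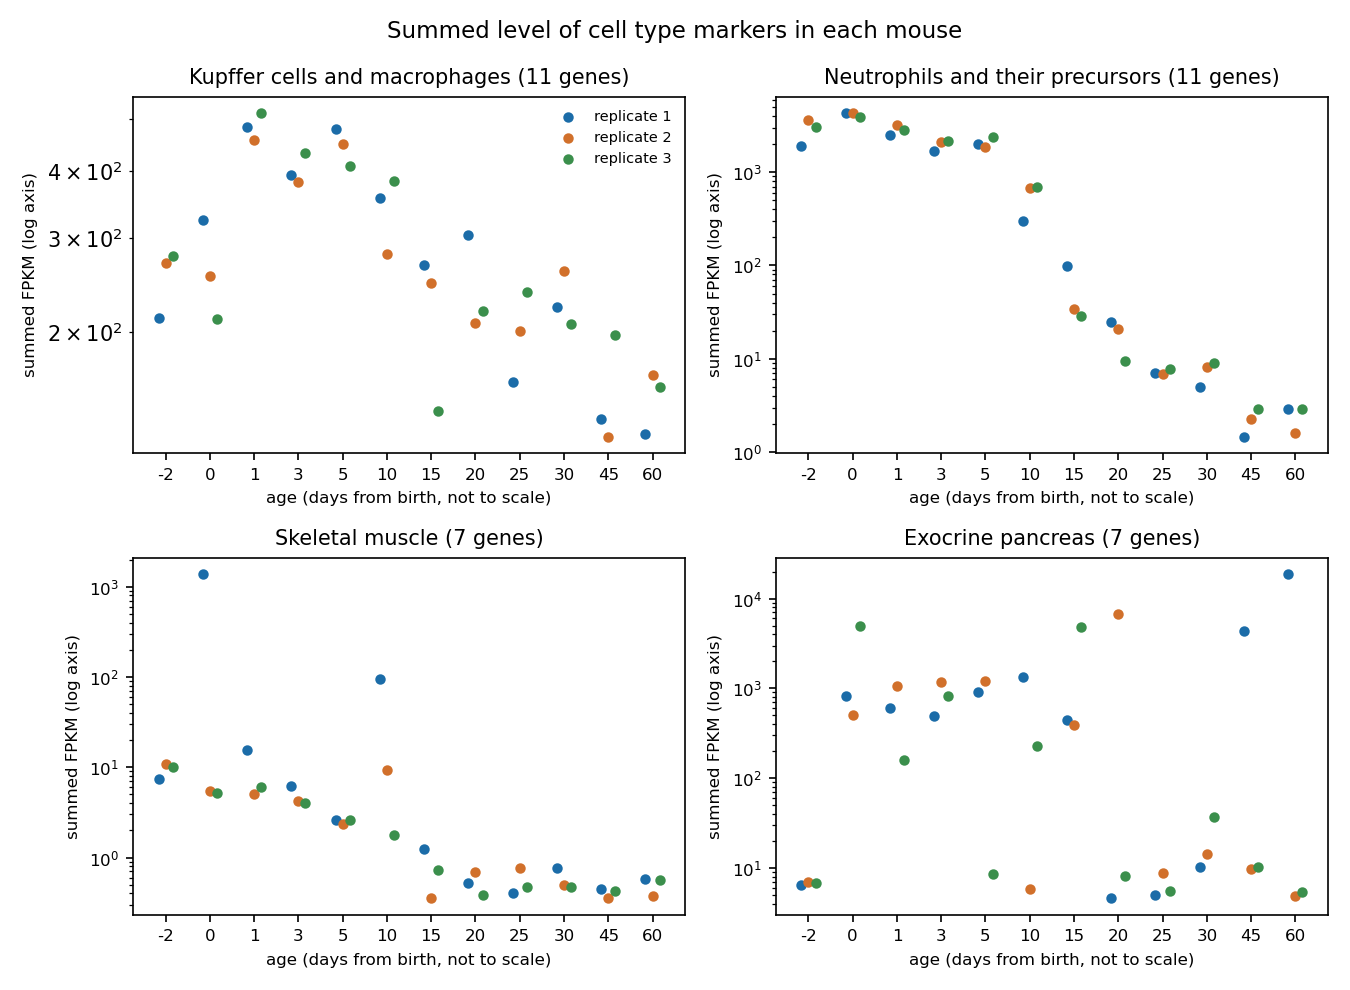
Summed FPKM of marker genes of 4 cell types in each mouse (log axis) against age; points are mice, coloured by replicate number. The macrophage sum was highest on Day 1 (514.4 FPKM), the neutrophil sum was up to 4330 FPKM at Day 0 and down to 1.45 FPKM at Day 45, muscle markers reached 1383 FPKM in Day 0 replicate 1, and pancreas markers passed 1000 FPKM in 9 libraries, with the highest sum, 18790 FPKM, in Day 60 replicate 1.

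Myd88, the adaptor that both receptors share, was high from before birth to Day 5 and then dropped once. The mice had 6.84, 7.91 and 6.25 FPKM at Day -2, 8.62, 7.94 and 8.88 FPKM at Day 0, and 9.02, 9.02 and 8.13 FPKM at Day 1. At Day 5 they still had 8.21, 8.12 and 7.67 FPKM, and at Day 10 only 5.39, 5.31 and 5.16 FPKM. The break between the 5 youngest ages and all later ones was the only place in the order of the 12 means where neighbouring ages did not overlap. Day 60 mice had 4.83, 5.26 and 4.95 FPKM.

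As a result Myd88 was 1.46-fold higher in suckling than in weaned mice (log2 fold change 0.43 ± 0.05, limma adjusted p = 3.93e-09), although no change passed the test at weaning itself (-0.06 ± 0.11, adjusted p = 0.85, limma). After upper quartile scaling the first of these was 0.08 and did not pass (limma adjusted p = 0.074). Myd88 was lower in the suckling ages than before suckling (-0.21 ± 0.06, limma adjusted p = 0.0038), a call that upper quartile scaling also ended (-0.08, limma adjusted p = 0.18). The rise at birth, 1.21-fold, was at the edge of the test (0.25 ± 0.11, limma adjusted p = 0.0499), and leaving out 1 mouse ended the call in 28 of 36 cases. With upper quartile scaling this rise was 0.48 (limma adjusted p = 8.17e-05).

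Nfkbia, the inhibitor that NF-kB itself induces, rose at birth. Its means over the suckling ages then lay between 6.49 FPKM (Day 10) and 9.12 FPKM (Day 20). Ordered by mean, all 11 pairs of neighbouring ages overlapped. The mice had 3.94, 5.10 and 5.93 FPKM at Day -2 and 8.75, 9.65 and 7.30 FPKM at Day 0, with no overlap. At Day 20 they had 7.29, 8.65 and 11.4 FPKM and at Day 25 4.98, 6.42 and 6.58 FPKM, again with no overlap. At Day 60, however, the level was back at 6.11, 9.99 and 9.17 FPKM, so that the suckling and weaned ages overlapped widely. Nfkbia rose 1.72-fold at birth (log2 fold change 0.68 ± 0.16, limma adjusted p = 0.0009), a call that held whichever mouse was left out. The fall at weaning to 0.66 of the level (-0.52 ± 0.16, limma adjusted p = 0.046) lost its call in 18 of 36 cases when 1 mouse was left out, and was smallest without Day 20 replicate 3 (-0.36, limma adjusted p = 0.30) and Day 25 replicate 1 (-0.41, limma adjusted p = 0.19). The small excess of suckling over weaned ages (0.17 ± 0.07, limma adjusted p = 0.032) turned to -0.19 (limma adjusted p = 0.026) after upper quartile scaling. It also lost its call in 6 of 36 cases, with adjusted p from 0.055 without Day 3 replicate 3 to 0.098 without Day 60 replicate 1 (limma); the others were Day 20 replicate 3 and replicate 1 of Days 25, 30 and 45. Against the ages before suckling it was 1.16-fold higher (0.23 ± 0.09, limma adjusted p = 0.034), a call lost without Day -2 replicate 1 (limma adjusted p = 0.16), Day 0 replicate 3 (0.12), Day 3 replicate 3 (0.051) or Day 20 replicate 3 (0.051). With upper quartile scaling this difference was 0.35 (limma adjusted p = 0.0016).

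The genes most like Nfkbia over the 12 age means were the pancreatic Try10, Cela2a and Cela3b (Pearson r = 0.92, 0.90 and 0.89). In the mice of Day 60, whose Nfkbia is given above, the pancreas markers summed to 18790, 4.83 and 5.42 FPKM in the same order. At Day 20 the sums were 4.58, 6701 and 8.22 FPKM, and at Day 0 they were 832.3, 508.0 and 4965 FPKM. Within these ages the highest sum was in the mouse with the lowest Nfkbia at Days 0 and 60 and in the middle mouse at Day 20, and its part in the Nfkbia values was not tested. Without the 9 libraries over 1000 FPKM of these markers, the fall at weaning was -0.55 (limma adjusted p = 0.11), the difference from the ages before suckling 0.16 (limma adjusted p = 0.22) and that from the weaned ages 0.09 (limma adjusted p = 0.35). The rise of Nfkbia at birth still passed the test without them.

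Il1b and Tnf, the inflammatory cytokines at the end of the pathway, were scarce but highest in the first days of suckling. Il1b was at 0.11, 0.11 and 0.17 FPKM in the mice of Day -2 and at 0.21, 0.17 and 0.48 FPKM in those of Day 0. Its highest age was Day 3, with 0.70, 1.32 and 0.71 FPKM, all above every mouse before suckling. Tnf had 0.26, 0.26 and 0.28 FPKM at Day 3, its highest age, and 0.036, 0.020 and 0.027 FPKM at Day 25, its lowest. Tested without the filter, Il1b was higher in the suckling ages than before them (log2 fold change 0.31, limma adjusted p = 0.0002) and than after weaning (0.16, limma adjusted p = 0.0068). Tnf was higher in suckling than in weaned mice (0.14, limma adjusted p = 5.58e-06). With a pseudocount of 0.1 FPKM these values were 0.96, 0.41 and 0.71, since a pseudocount of 1 compresses changes of genes this low. Without the filter and with upper quartile scaling they were 0.30 (limma adjusted p = 0.0006), 0.03 (limma adjusted p = 0.83) and 0.098 (limma adjusted p = 0.0007), so that the difference of Il1b from the weaned ages did not pass. Tnf did not pass against the ages before suckling without the filter (-0.008, adjusted p = 0.98, limma). It did not pass at birth (adjusted p = 0.48, limma) or over the first day (adjusted p = 0.31, limma) either. At these levels a mouse-to-mouse difference can rest on few fragments.

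**Figure D4:**
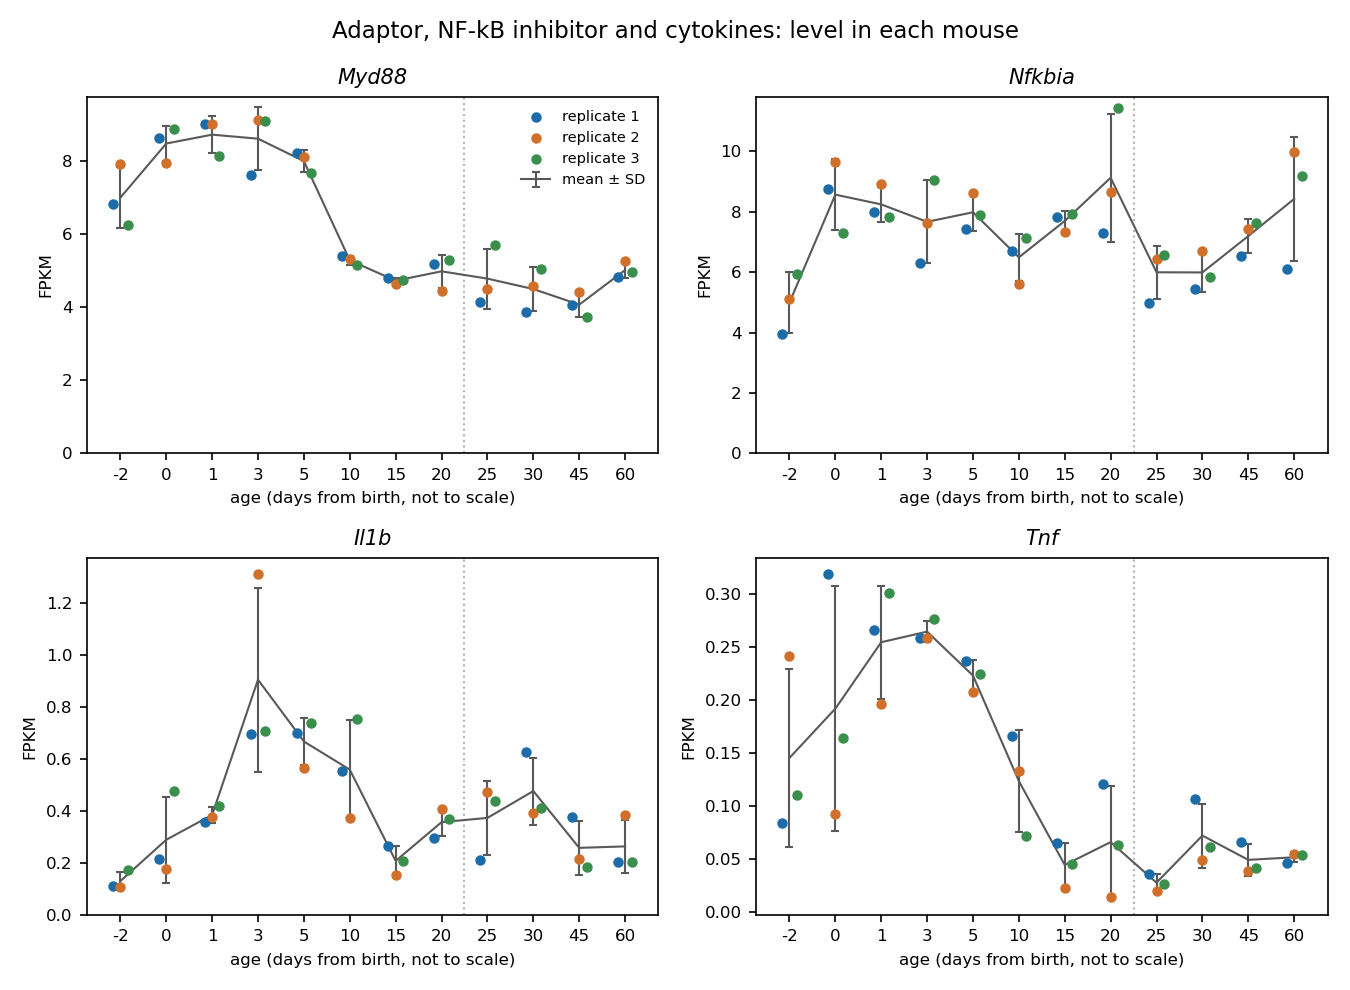
FPKM of Myd88, Nfkbia, Il1b and Tnf in each mouse against age (points are mice by replicate number, the line joins the means of 3 mice, bars are SD, the dotted line marks weaning; each panel has its own linear axis). Myd88 dropped between Day 5 (7.998 FPKM) and Day 10 (5.28 FPKM), when the upper quartile of the libraries fell too. Nfkbia rose from 4.99 to 8.57 FPKM at birth, and Il1b and Tnf had their highest means at Day 3.

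Set side by side, birth was the step at which most of the tested members rose. Cd14, Lbp, Myd88, Nfkbia and Pglyrp2 were higher at Day 0 than at Day -2, 5 of 7, and none was lower. Of all genes 13.1% were higher and 41.4% lower at this step. The median log2 fold change was 0.68 over the 7 members and -0.29 over all genes. Upper quartile scaling moved the median of all genes to -0.08 and the split of all genes to 20.1% higher and 26.03% lower, with the same counts of members. Without Day 0 replicate 1 the count was 3. Erythroid markers moved at the same step: their sum was at least 127200 FPKM in the fetal mice and at most 80420 FPKM in the newborn.

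The other 4 comparisons had fewer or more scaling-dependent calls. Over the first day of suckling 2 of 7 members rose, Pglyrp2 and Tlr2, and none fell, with 23.7% of all genes higher and 7.88% lower; after upper quartile scaling these were 14.7% and 12.0% and 1 member, Pglyrp2, kept its call. At weaning 2 of 7 fell, Lbp and Nfkbia, and none rose, where 3.94% of all genes were higher and 3.26% lower. Relative to the ages before suckling, 4 members were higher in the suckling ages (Lbp, Ly96, Nfkbia and Pglyrp2) and 1 lower (Myd88), against 27% and 40.7% of all genes. After upper quartile scaling 5 members were higher, with Tlr2 added, and none lower, against 33.3% and 33.9% of all genes.

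Relative to the weaned ages, 5 members were higher in suckling mice and none lower, but so were 68.1% of all genes, with 11.7% lower, so that the count was near the background. The median of all genes was itself 0.39 in this comparison. Upper quartile scaling brought it to 0.13 and the split of all genes to 45.3% higher and 25.8% lower. It then left 2 members higher, Lbp and Tlr2, and 3 lower, Ly96, Nfkbia and Pglyrp2. Among the members that passed the filter, therefore, only Lbp and Tlr2 had an excess in suckling mice that passed the test under both scalings. Tlr4 and Tnf, tested without the filter on low values, also passed under both.

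**Figure D5:**
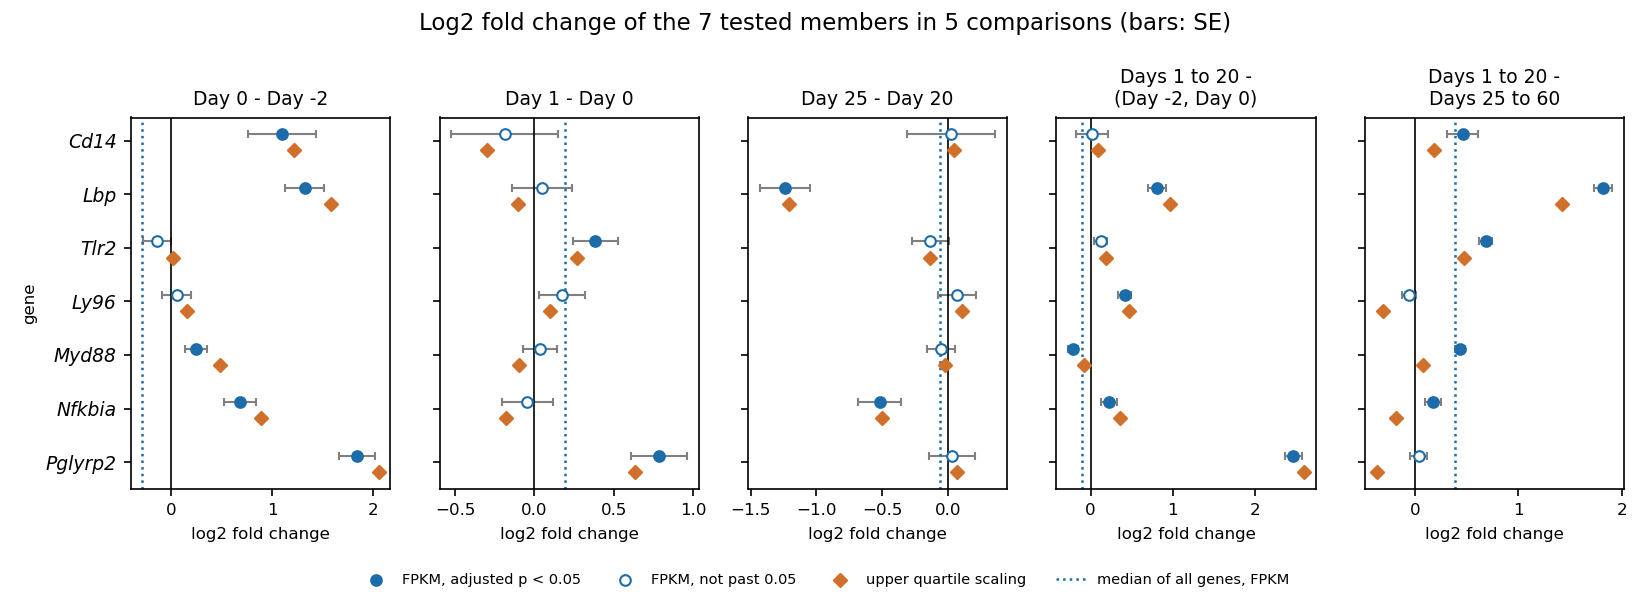
Log2 fold change on the log2(FPKM + 1) scale of the 7 tested members in 5 comparisons, each panel with its own linear axis (circles, FPKM with SE bars, filled where the limma adjusted p passed 0.05; diamonds, upper quartile scaling; dotted line, median of all genes on FPKM). Birth moved Pglyrp2 (1.84) and Lbp (1.32) most, weaning moved Lbp (-1.24), and in the last panel upper quartile scaling took Nfkbia and Pglyrp2 below 0.

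Other genes of the pathway were read from lists of related genes, chosen with results of these data known. Their counts stand beside the shares of all genes given above. These were 13.1% higher and 41.4% lower at birth, 23.7% and 7.88% over the first day, and 3.94% and 3.26% at weaning. For the suckling ages they were 27% higher and 40.7% lower than before suckling, and 68.1% higher and 11.7% lower than in weaned mice. Where limma called no member or listed gene in a direction, none had an unadjusted p below 0.05 either, except 1 adaptor or kinase higher at weaning, 2 NF-kB genes higher over the first day and 1 lower at weaning. Of 14 other Toll-like receptors and partners, 9 were tested. At birth 1 of them rose, Unc93b1, which escorts the endosomal receptors (by 0.40 on the log2 scale, limma adjusted p = 0.0079, but 0.075 without Day -2 replicate 1). The largest fall among the 2 lower ones was that of Hsp90b1, the chaperone gp96 that folds Toll-like receptors (-1.71, limma adjusted p = 0.0028). Its mice had 71.4, 47.9 and 48.7 FPKM at Day -2 and 19.4, 19.8 and 10.9 FPKM at Day 0. Hsp90b1 rose again over the first day (1.70, limma adjusted p = 0.0061), and the count of this list was 6 higher and 0 lower there, where 23.7% of all genes were higher. With upper quartile scaling it was 4 higher, without Day 0 replicate 3 or Day 1 replicate 1 it was 3, and without the libraries with pancreas markers 1. None of the 9 passed the test at weaning. Relative to weaned mice 5 of 9 were higher in suckling mice, beside 68.1% of all genes, led by Ly86, the MD-1 partner of CD180 (0.81, limma adjusted p = 4.1e-08), and relative to the ages before suckling 3, led by Tlr12 (0.40, limma adjusted p = 0.0004). After upper quartile scaling the suckling ages had 5 higher and 4 lower against the weaned ages.

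Of 6 further peptidoglycan sensors 3 were tested, and 1 of them fell over the first day while Pglyrp2 rose. It was Pglyrp1, a bactericidal protein of neutrophil granules. Its mice had 49.7, 103.9 and 78.6 FPKM at Day -2, 144.4, 152.0 and 195.9 FPKM at Day 0, and 57.6, 79.8 and 73.3 FPKM at Day 1. By Day 25 it was at 0.55, 0.47 and 0.51 FPKM, when Pglyrp2 had the third highest of its age means. Pglyrp1 rose at birth (1.12, limma adjusted p = 0.0020), fell over the first day (-1.21, limma adjusted p = 0.0024) and was 3.45 higher in suckling than in weaned mice (limma adjusted p = 1.48e-19). The neutrophil marker sum went the same way. It lay between 1907 and 3621 FPKM before birth, between 3928 and 4330 FPKM in newborns, between 2522 and 3175 FPKM on Day 1 and at most at 7.70 FPKM on Day 25, and its part in Pglyrp1 was not tested. Ripk2, the kinase behind the NOD receptors, rose over the first day (0.41, limma adjusted p = 0.0099, but 0.11 without Day 0 replicate 3 and 0.051 without Day 1 replicate 1). Nod1, a cytosolic peptidoglycan receptor, was higher in the suckling ages than before them (0.42, limma adjusted p = 0.0006). In all 1 of the 3 rose at birth, 1 rose and 1 fell over the first day, none passed at weaning, 2 were higher and 1 lower than before suckling, and 3 were higher than after weaning, where 68.1% of all genes were. Upper quartile scaling gave 1 higher in this last comparison.

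Among 18 adaptors and kinases, 17 were tested, and none rose at birth while 6 fell, beside 41.4% of all genes that fell. The largest fall was that of Tab3, a binding partner of the kinase TAK1 (-1.33, limma adjusted p = 2.79e-05). Over the first day 3 rose, beside 23.7% of all genes, led by Chuk, the IKKα kinase (1.01, limma adjusted p = 0.038, which upper quartile scaling raised to 0.069). This call was lost without Day 0 replicate 2 or 3 or Day 1 replicate 1 or 2 (limma adjusted p from 0.059 to 0.17), and the count was 1 after upper quartile scaling and from 1 to 4 when 1 mouse was left out, with 1 without Day 0 replicate 3 or Day 1 replicate 1. None passed at weaning. Relative to weaned mice 12 of 17 were higher in suckling mice and 2 lower, shares near those of all genes (68.1% and 11.7%), from Tab1, another partner of TAK1 (0.85, limma adjusted p = 1.43e-14), to Chuk (-0.53, limma adjusted p = 0.0051). With upper quartile scaling these counts were 2 and 4. Against the ages before suckling 2 were higher and 5 lower, from Irak2 (0.25, limma adjusted p = 0.020, but 0.092 without Day -2 replicate 1 and 0.062 without Day 0 replicate 3), a kinase of the MyD88 complex, to Ikbkg (-0.82, limma adjusted p = 4.63e-06), the regulatory subunit NEMO; upper quartile scaling gave 6 and 5.

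NF-kB subunits and their inhibitors (7 of 10 tested) had 2 rises at birth and no fall, led by Bcl3, a nuclear IκB protein (0.51, limma adjusted p = 0.040). That call was lost without any one mouse of Day -2 and without Day 0 replicate 2 or 3 (limma adjusted p from 0.056 to 0.15). None passed over the first day or at weaning on FPKM. Against the ages before suckling 3 were higher, led by Bcl3 (0.65, limma adjusted p = 2.95e-05), and 2 lower, led by Nfkbib, the IκBβ inhibitor (-0.36, limma adjusted p = 0.0011), but after upper quartile scaling 4 were higher and none lower. Relative to weaned mice 5 of 7 were higher, near the 68.1% of all genes, with the largest value in Nfkb1, the p50 subunit (0.75, limma adjusted p = 6.17e-10), and none lower; with upper quartile scaling 4 were higher and 2 lower.

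Cytokines, chemokines, inflammasome genes and cytokine receptors (12 of 19 tested) were the group with most falls at weaning, 3, against 0 rises. The largest was that of Il6ra, the interleukin-6 receptor, with 4.31, 4.78 and 4.02 FPKM at Day 20 and 1.65, 0.51 and 1.56 FPKM at Day 25 (-1.30, limma adjusted p = 0.0029). On FPKM 1 gene, Tnfrsf1a, the TNF receptor, rose at birth (0.61, limma adjusted p = 0.0004), and after upper quartile scaling 3 did. On FPKM 2 rose over the first day, led by Il1rap, the accessory chain of the IL-1 receptor (0.89, limma adjusted p = 0.021, but 0.12 without Day 0 replicate 3 or Day 1 replicate 1). Il1rap was also 2.24 higher in the suckling ages than before them (limma adjusted p = 1.34e-12), where 7 genes of the list were higher and 2 lower, the latter including Pycard, the inflammasome adaptor (-0.90, limma adjusted p = 1.33e-08). In that comparison 27% of all genes were higher and 40.7% lower. Relative to weaned mice 11 of 12 were higher, beside 68.1% of all genes, led by Il1rn, the antagonist of the IL-1 receptor (1.44, limma adjusted p = 7.44e-13), and 1, Il1rap, lower (-1.01, limma adjusted p = 7.65e-08). Upper quartile scaling left 7 and 2.

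Genes of endotoxin handling and the acute phase (11 of 12 tested) had 6 rises and 1 fall at birth, beside 13.1% and 41.4% of all genes, and differed from Lbp at weaning. Hamp, which encodes hepcidin, had 5.58, 9.72 and 6.81 FPKM at Day -2 and 670.4, 35.01 and 96.02 FPKM at Day 0, with no overlap but a wide spread, and a log2 fold change of 4.02 (limma adjusted p = 0.0039). The highest of these is Day 0 replicate 1, the library with the muscle markers, without which the log2 fold change of Hamp was 2.85 (limma adjusted p = 0.046). The fall was that of Saa4, the constitutive serum amyloid A (-1.13, limma adjusted p = 0.0004). Over the first day Hp, haptoglobin, rose (0.64, limma adjusted p = 0.026; from 0.051 to 0.20 without Day 0 replicate 2 or 3 or Day 1 replicate 2 or 3, and 0.13 after upper quartile scaling) and 3 genes fell, led by Saa3, the inducible amyloid A of macrophages (-2.40, limma adjusted p = 1.77e-07), with 15.2, 36.3 and 20.0 FPKM in the newborn mice and 3.74, 2.91 and 3.65 FPKM on Day 1.

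At weaning, when Lbp fell, 4 genes of this list rose and 1 fell, beside 3.94% and 3.26% of all genes. Orm1, the acute phase protein orosomucoid, had 11.8, 28.03 and 12.2 FPKM on Day 20 and 395.1, 466.2 and 402.0 FPKM on Day 25 (4.63, limma adjusted p = 3.09e-15), a value that is uncertain where reads are shared with the near-identical Orm2. Scarb1, the lipoprotein receptor SR-BI that also takes up endotoxin, had 155.4, 136.5 and 174.3 FPKM before weaning and 75.0, 66.0 and 78.6 FPKM after it, a fall (-1.07, limma adjusted p = 0.0004). Relative to weaned mice 4 of the 11 were higher in suckling mice, led by Lcn2, the siderophore-binding lipocalin (3.12, limma adjusted p = 1.99e-19), and 7 lower, led by Orm1 (-7.85, limma adjusted p = 6.31e-31). Against the ages before suckling 7 were higher, led by Hp (2.78, limma adjusted p = 1.37e-17), and 3 lower, led by Lcn2 (-2.06, limma adjusted p = 1.12e-12), beside 27% and 40.7% of all genes.

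The medians of the lists are given beside those of all genes, as a description. At birth the median log2 fold change was 0.76 for endotoxin handling and acute phase, 0.29 for peptidoglycan sensing, 0.21 for NF-kB genes, 0.08 for cytokines and their receptors, -0.26 for Toll-like receptors and -0.33 for adaptors and kinases, beside -0.29 over all genes and 0.68 over the members. At weaning it was 0.58 for the acute phase group and -0.25 for the cytokine group, beside -0.07 over all genes. Between the suckling ages and those before them it was 0.67 for the acute phase group, 0.33 for the cytokine group and from 0.03 to 0.23 for the other 4 lists, against -0.10 over all genes. Between suckling and weaned ages it was -1.13 for the acute phase group, against 0.39 over all genes, and from 0.29 to 0.57 for the other 5 lists. Lbp, at 1.82, thus lay on the other side of 0 from the median of the acute phase genes in that comparison.

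The genes whose age course was most like each member were sought among the 6848 genes that reached a mean of 5 FPKM at any age, by Pearson r over the 12 age means of log2(FPKM + 1), as a description. For Lbp these were Defb1, a defensin (0.97), Fn1, fibronectin (0.97), and Slc13a3, a dicarboxylate transporter (0.97). For Pglyrp2 they were Cldn3 (a claudin of tight junctions), Hsd3b3 and Agmat, at 0.99, 0.99 and 0.98. Tlr2 was closest to Dscr3, Plscr1 and Cd300a, an inhibitory receptor of myeloid cells (0.99, 0.99 and 0.98). Myd88 was closest to Mapk13, a p38 kinase, Psmd9 and Gas2l1 (0.98 each), and Ly96 to 1110065P20Rik, Prdx1 and Ttyh2 (0.94, 0.94 and 0.93). Cd14 was closest to Cryab, Myl4, a myosin light chain, and Ifitm1 (0.94, 0.92 and 0.92), of which Cryab and Myl4 had their highest mean at Day 0, the age of the library with muscle markers.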

How the data were processed

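Polyadenylated RNA of 36 mouse livers was sequenced. The authors aligned reads with TopHat 1.2.0 to NCBI37/mm9 and deposited FPKM per gene symbol made with Cufflinks 1.0.3 (versions per the submitters' processing notes), with no further scaling between libraries named and no counts. FPKM are relative to all mapped fragments, so a few very abundant genes lower all others. The paper gives an average read number per sample, but fragment numbers per library and gene are unknown. The steps between low FPKM values were within 0.1 of whole fragments for 86.4% of values of 412 low genes. This gave the relative depths only, so the test was kept on a log scale.

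Groups followed the age labels. log2(FPKM + 1) was fitted with limma 3.58.1 (R 4.3.3), 1 mean per age over all 36 mice with a variance trend, for 11149 genes (mean of 1 FPKM or more at any age). Tests were two-sided at an adjusted p of 0.05 (Benjamini-Hochberg over all genes tested), and fold changes on the log2(FPKM + 1) scale understate changes of low genes. The fit was checked on simulated data. The p-values set each difference against the spread between mice of the same age, pooled over the ages and moderated across genes. The paper states that mice were drawn at random from multiple litters, but the labels name no litters, so litter could not be modelled. The members and lists were chosen with earlier results of these data known. Named genes were the members, the 3 genes most like each tested member over the age means, and the largest called rise and fall of each list in a comparison. The alternatives were other pseudocounts, filters, scalings (upper quartile, TPM) and variance models, a replicate block, Dunnett's test, and leaving out each mouse; leaving out the libraries with pancreas markers, and joint changes of filter and pseudocount or scaling for the low members, were added after seeing the data. Replicate numbers were not used to pair the mice in the main fit.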

Additional observations from a re-analysis of the deposited data

How the results depend on the processing

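The rises of Lbp, Nfkbia and Pglyrp2 at birth, of Pglyrp2 over the first day and the fall of Lbp at weaning kept their direction and call under each alternative run, including all 36 fits that left out 1 mouse. Counts of members moved as follows, and the cause was not tested. The count higher at birth ranged from 3 to 5 when 1 mouse was left out, and 3 came without Day 0 replicate 1. The count higher over the first day, 2 on FPKM, was 1 with a pseudocount of 0.1, with no filter, with a filter at 5 FPKM, with upper quartile scaling and without the libraries with pancreas markers, and ranged from 1 to 2 when 1 mouse was left out. The count lower at weaning was 1 with no filter and without those libraries, and from 1 to 2 when 1 mouse was left out. The count lower in suckling than before was 0 with upper quartile or TPM scaling. The count higher in suckling than weaned mice was 8 with no filter, which adds Tlr4, Il1b and Tnf, and 2 with upper quartile scaling, which also made 3 lower. Nfkbia turned to -0.19 in that comparison with upper quartile scaling, and Pglyrp2 to -0.37, and to -0.026 with TPM scaling. Cd14 ranged from -0.58 to 0.58 over the first day when 1 mouse was left out. In suckling mice against the ages before suckling it ranged from -0.18 to 0.41, and was -0.17 without the libraries with pancreas markers. Under the replicate block the call of Myd88 at birth was lost (limma adjusted p = 0.050047) and the members higher at birth were 4. Same-numbered mice of different ages had a median correlation of 0.126 (198 pairs, from -0.68 to 0.83). Mice with different numbers had one of -0.048 (396 pairs, from -0.78 to 0.77). These ranges overlapped widely, and the labels do not say what the numbers stand for. The main fit therefore did not use the numbers as pairs, which leaves a shared effect of the number open. Of 66 named log2 fold changes, 23 changed call or direction under at least 1 alternative. Without the libraries with pancreas markers, for example, Tlr2 over the first day was 0.27 (limma adjusted p = 0.35) and Myd88 at birth 0.22 (limma adjusted p = 0.21). Depth could not be read as fragment counts, which limits the lowest members, Tlr4, Il1b and Tnf, most.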
